A study of Mus musculus with 2 samples.

Results

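The genes of polyamine synthesis and of its antizyme control were examined in mouse heart by long-read RNA sequencing, in which a read spans most or all of an mRNA. They were Oaz1, Oaz2, Azin1, Odc1, Amd1, Srm, Sms and Sat1, taken by gene name in both libraries, 8 of 15848 annotated genes with a read in either. The set was chosen by read values of these same libraries, namely the reads of an abundant Oaz1 transcript model that the reference annotation does not list. The levels and the model makeup are therefore given as descriptions, and tests are confined to differences between the libraries, which the choice did not use. The samples formed 1 group of 2 replicates: heart tissue from untreated female B6CASTF1/J mice aged 2 months, a first-generation hybrid of C57BL/6 and CAST strains, with 2 µg of RNA per library. The labels numbered the animals differently in some fields and identically in others, so whether 2 animals were sampled is not settled, and the spread between the replicates may be technical.

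The libraries held 905154 and 745375 reads, on 85327 and 82087 transcript models. Levels are counts per 1000000 reads on annotated genes (CPM), and a single read counted for 1.16 and 1.41 CPM. Values given in pairs are those of replicate 1, then replicate 2. All 5 cardiomyocyte markers were read, at a summed 40901 and 44330 CPM. Markers of red cells summed to 25948 and 24128 CPM. Those of fibroblasts summed to 776 and 702 CPM, of endothelium to 209 and 239, and of smooth muscle and pericytes to 517 and 535. Macrophage markers summed to 142 and 123 CPM, and adipocyte markers to 113 and 45.2 CPM. Of the 3 skeletal muscle markers Acta1, the skeletal alpha actin, was read at 442 and 446 CPM, and the myosins Myh1 and Myh4 were at 0 reads. Both lung and both liver markers were at 0 reads. In such bulk tissue fewer cells of a type and less RNA per cell cannot be told apart. The intervals and p-values reflect counting error alone and hold no term for variation between animals or libraries. Reads that lack molecular identifiers can repeat the same molecule, so that even the counting error may be understated. Means are ± SD (n = 2).

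Polyamines (putrescine, spermidine and spermine) are small positively charged molecules that bind nucleic acids and are needed for translation and growth. Ornithine decarboxylase (Odc1) makes putrescine, S-adenosylmethionine decarboxylase (Amd1) supplies the aminopropyl donor, and spermidine synthase (Srm) and spermine synthase (Sms) add it. Antizymes (Oaz1, Oaz2) bind ornithine decarboxylase, send it to the proteasome and curb polyamine uptake. The antizyme inhibitor Azin1 resembles the decarboxylase, lacks its activity and captures antizyme. Antizyme protein is made only when the ribosome slips forward by a single base at the stop codon of a short opening reading frame, and polyamines favour this slip. Sat1, spermidine/spermine acetyltransferase, marks polyamines for export or breakdown.

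Nearly all reads of both antizyme genes lay on models that the authors' software had classed as unannotated. In Oaz1 the share of reads on annotated models was 0.0648% in replicate 1 (1 of 1543) and 0% in replicate 2 (0 of 1314). In Oaz2 it was 0% in both, of 318 and 272 reads. Across 2208 spliced genes with at least 50 reads in each library the median share was 86.0% and 85.7%, and 55 genes (2.49%) lay below 2% in both libraries. The 2 antizyme genes were thus at the lower end of these genes, a place that for Oaz1 had been known when it was chosen.

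The intron chains of these models were compared with GENCODE M21, the annotation used by the authors. Oaz1-201, a protein-coding model, has a gap of 4 bases inside its second exon (chr10:80828292-80828295, plus strand, mm10), and Oaz1-202, Oaz1-203 and Oaz1-207 have a gap of 1 base at 80828295. Oaz2-201 has a gap of 4 bases (chr9:65686269-65686272, plus strand), and Oaz2-204 and Oaz2-206 have a gap of 1 base at 65686272. Oaz3, the antizyme of the testis, has a 1-base gap in 5 of its models, but it had 0 reads in both libraries. With the reading frame followed from the annotated start codon across the continuous exon, the gap base was the first base of a TGA stop codon in both genes. The gaps thus lie at the site of the ribosomal slip.

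The sequence around this stop is shown because the annotation leaves out its bases and the long-read models do not. The C57BL/6J reference was read through without the gap, for Oaz1 at chr10:80828265-80828325 and for Oaz2 at chr9:65686242-65686302, with the stop codon in capitals.
Oaz1, continuous: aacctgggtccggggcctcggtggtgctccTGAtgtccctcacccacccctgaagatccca
Oaz2, continuous: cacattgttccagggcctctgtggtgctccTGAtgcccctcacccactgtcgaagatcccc
The same stretches as joined in Oaz1-207 and Oaz2-206, without the single T, have the codon before the gap and the remaining 2 bases of the stop in capitals.
Oaz1, joined: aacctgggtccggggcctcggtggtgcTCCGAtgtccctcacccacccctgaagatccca
Oaz2, joined: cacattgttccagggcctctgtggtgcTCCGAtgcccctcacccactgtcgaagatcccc
The 4 bases absent from Oaz1-201 and Oaz2-201 read TCCT in both genes. Aligned without gaps at the stop, the 2 continuous windows were identical at 49 of 61 bases (80.3%), with a longest identical run of 15 bases that holds the stop. The deposited models give exon boundaries and not the bases of each read, and the mice also carry a CAST genome, so that these letters are those of the reference.

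In Oaz1 the opening frame ran for 68 codons to its TGA, and the frame 1 base further ran for 159 codons to the annotated TAG stop, 227 codons in all. In Oaz2 the opening frame ran for 32 codons and the shifted frame for 157 codons to the annotated TAA stop, 189 in all. The shifted frames were thus of nearly equal length (159 and 157 codons), and the opening frame of Oaz1 held more codons than that of Oaz2 (68 and 32).

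The leading Oaz1 model had 5 exons and 1482 reads in replicate 1 and 1266 in replicate 2, and ranked 2nd among 7547 unannotated spliced models seen in both libraries. Its intron chain was the same as that of Oaz1-201 and Oaz1-207 once their gaps were filled. The leading Oaz2 model, also of 5 exons, had 293 and 247 reads, ranked 11th, and equalled Oaz2-201 and Oaz2-206 with filled gaps. With all annotated gaps of at most 10 bases filled, the share of reads on annotated chains was 97.4% (Wilson 95% interval 96.5 to 98.1) and 97.3% (96.2 to 98.01) in Oaz1. In Oaz2 it was 92.5% (89.0 to 94.9) and 90.8% (86.8 to 93.7). Both values of each gene then stood above the median shares given for the 2208 genes.

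**Figure D1:**
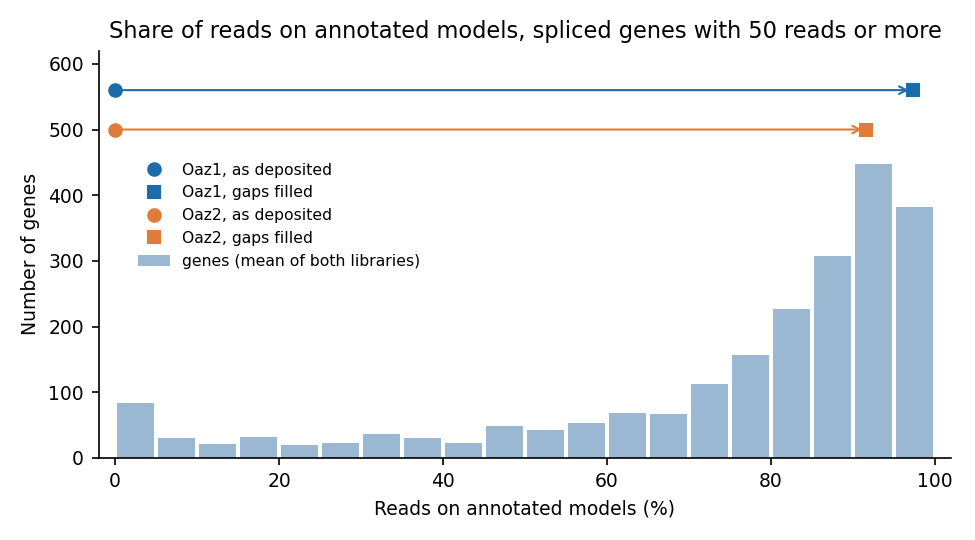
Number of genes (vertical axis) by the share of their reads on annotated models in % (horizontal axis, mean of both libraries, bins of 5 percentage points) for the 2208 spliced genes with at least 50 reads in each library. Circles mark Oaz1 and Oaz2 as deposited, near 0%, and squares the same genes with annotated gaps of at most 10 bases filled, at 97.3% and 91.6%; the height of these marks carries no value.

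Such gaps were uncommon in the annotation and touched few reads outside the antizymes. In the whole of GENCODE M21, 284 models of 242 genes have a gap of at most 10 bases. Filling them moved 1833 reads of replicate 1 and 1572 of replicate 2 onto annotated chains, in 8 genes. Oaz1 and Oaz2 held 97.98% and 97.01% of those reads. The next gene, Nadk2, held 32 and 42. Of the 55 genes with under 2% annotated reads, 5 had a model with such a gap, against 11 of all 2208 genes. These 5 include Oaz1 and Oaz2 themselves. Of the other 3, filling moved 2 of 403 and 1 of 349 reads in Mpc1, and 0 in Gbe1 and Tnnt2.

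The other 6 genes lay mostly on annotated models. The annotated share was 91.3% and 86.5% in Sms, 89.5% and 70.0% in Srm, and 87.5% and 91.7% in Sat1. In Odc1 it was 83.3% and 82.2%, in Amd1 80.6% and 75.5%, and in Azin1, the lowest of these 6, 70.2% and 62.5%. Filling gaps changed none of these 6 shares. The share was compared between the libraries by Fisher's exact test over 4651 genes with at least 20 reads in each, of which 0.129% were called at an adjusted p below 0.05. The 6 members tested were Oaz1, Oaz2, Azin1, Odc1, Amd1 and Sms, and none was called (Fisher's exact test, Benjamini-Hochberg adjusted p = 1 for each). With 1 and 0 annotated reads in Oaz1 and 0 in Oaz2, a call was not possible for either antizyme gene. Srm and Sat1 had too few reads to be tested.

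**Figure D2:**
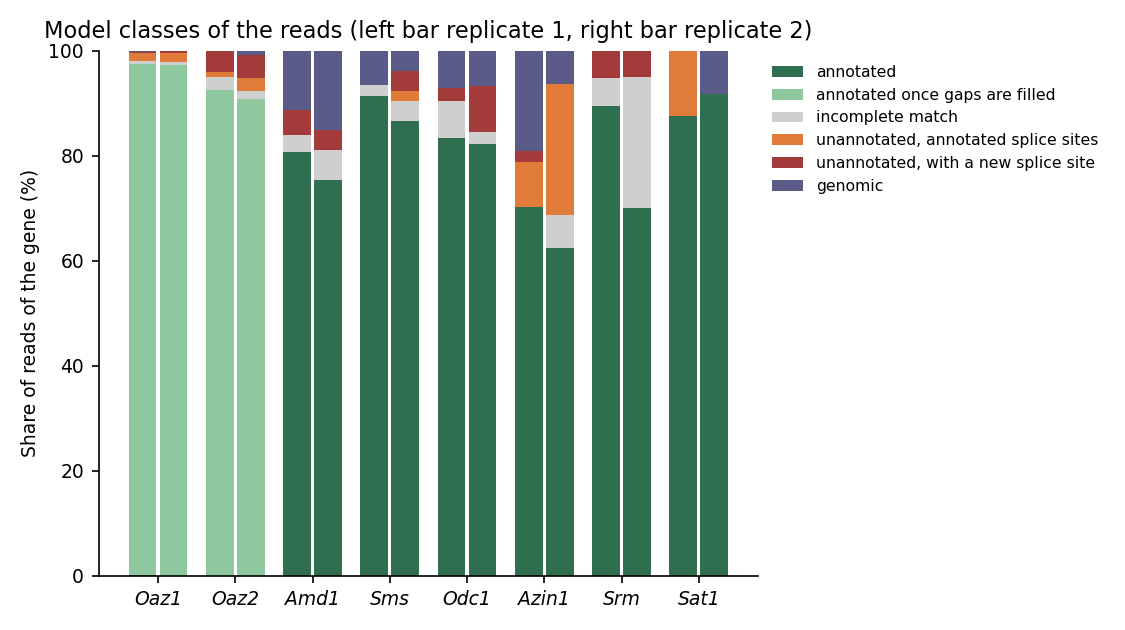
Share of the reads of each gene in % (vertical axis, stacked to 100%) by model class, with replicate 1 in the left bar and replicate 2 in the right bar of each gene. Light green marks reads whose chain is annotated once gaps of at most 10 bases are filled; it covers over 90% of Oaz1 and Oaz2 and is absent from the other 6 genes, where dark green, reads on annotated models, leads.

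Besides the antizyme gap, the members showed 6 pairs of acceptors at most 30 bases apart that shared a donor and were both used in both libraries. They lay in Oaz1, Oaz2, Azin1 and Odc1. In all 6 pairs the downstream acceptor, which shortens the exon, was the less used, and the optional bases ended in AG, the end of nearly all introns. The distance was a multiple of 3 bases in 4 pairs and not in 2, both of the latter in Oaz1.

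In each of its pairs Oaz1 used the upstream acceptor in nearly all reads. The acceptor 6 bases into its second exon, annotated in Oaz1-202, took 18 of 1528 reads (1.18%, Wilson 95% interval 0.746 to 1.85) and 11 of 1307 (0.842%, 0.471 to 1.501). The acceptor 22 bases into the last exon, annotated in Oaz1-204, took 22 of 1534 (1.43%, 0.949 to 2.16) and 21 of 1306 (1.61%, 1.05 to 2.45). An acceptor 8 bases into the fourth exon, annotated in Oaz1-203, took 2 of 1539 and 2 of 1313 reads (0.130% and 0.152%). These forms were thus seen at about the same low level in both libraries, with overlapping intervals.

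The junctions of the pairs with at least 10 reads of the shorter form in all are shown, since the 2 forms differ by these bases alone at the junction, with the optional bases in capitals, after 12 bases of the exon before and before 12 bases of the shorter exon.
Oaz1, second exon, longer form from chr10:80828237 and shorter from 80828243: cagcagcgagagTTCTAGggttgcccttaa
Oaz1, last exon, longer form from chr10:80828871 and shorter from 80828893: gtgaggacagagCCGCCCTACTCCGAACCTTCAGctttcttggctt
Oaz2, second exon, longer form from chr9:65686196 and shorter from 65686199: cacccaggacagTAGtattttgccgtt
Azin1, minus strand, longer form from chr15:38492359 and shorter from 38492356: tttcctctggagTAGaaaaaaatggga
Both the Oaz1 pairs, the Oaz2 pair and the Azin1 pair lie between the annotated start and stop codons, and the Odc1 pair lies before the start codon.

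In Oaz2 the acceptor 3 bases further, which is not annotated, took 13 of 309 reads (4.21%, 2.47 to 7.06) and 13 of 266 (4.89%, 2.88 to 8.18). In Azin1 the acceptor 3 bases further took 5 of 38 reads (13.2%, 5.75 to 27.3) and 7 of 29 (24.1%, 12.2 to 42.1). GENCODE has it in Azin1-205, a model typed as a target of nonsense-mediated decay. Here 4 and 6 of its reads were on an otherwise standard chain of 12 exons that the annotation does not list. In Odc1 an unannotated acceptor 3 bases further took 1 of 36 reads and 3 of 41 (2.78% and 7.32%). The intervals of the replicates overlapped in each of these pairs.

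**Figure D3:**
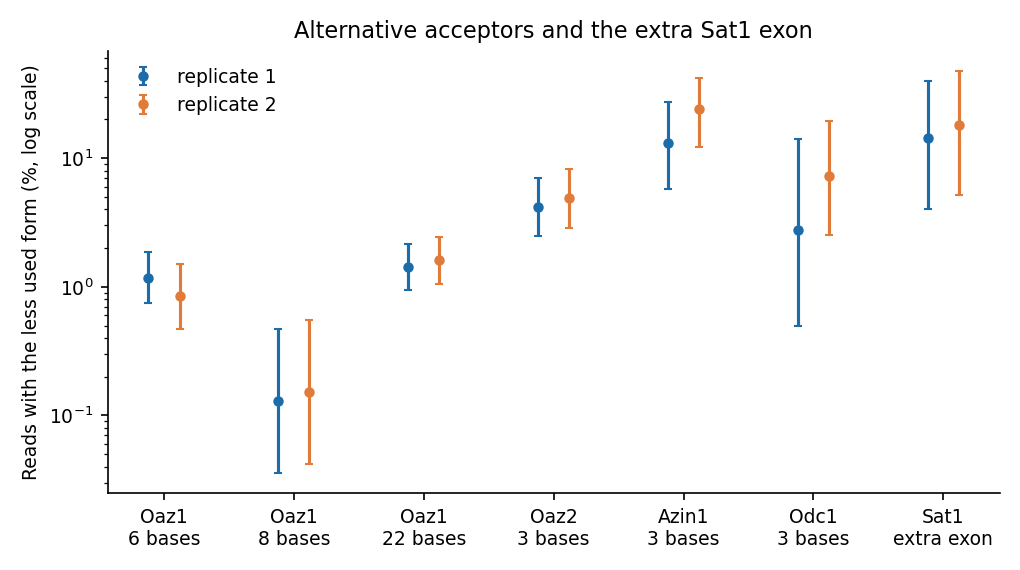
Share of reads with the less used form in % (vertical axis, log scale) for the 6 acceptor pairs, labelled by gene and distance in bases, and for the extra exon of Sat1; points are replicates and bars are Wilson 95% intervals. Shares run from 0.130% for the 8-base pair of Oaz1 to 24.1% for Azin1 in replicate 2, and the intervals of both replicates overlap at every site.

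The antizyme genes also had rarer structures. An Oaz1 chain that skips the second exon, and with it the frameshift site, had 2 and 2 reads, and an Oaz2 chain that skips the fourth exon had 2 and 4. In Oaz1 the last intron was retained in 3 and 3 reads, against 1512 and 1285 that spliced it at the main sites. A donor 4 bases further for the last intron was spliced to the main acceptor in 2 and 2 reads and to the acceptor 22 bases further in 0 and 1. A donor 4 bases further for the second intron was used in 1 and 1 reads. In all, 37 unannotated spliced structures of the 8 genes were seen in either library and 12 in both, of 76 structures. Those 12 were 7 of Oaz1, 3 of Oaz2 and 1 each of Azin1 and Odc1, the 2 leading antizyme models included. The ends of a deposited model are those of the model and not of each read, so start and polyadenylation sites were not analysed here.

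Among the 8 genes the antizymes had the highest levels. Oaz1 (chr10:80826656-80829290, plus strand) stood at 1796 CPM in replicate 1 and 1857 CPM in replicate 2, 1826 ± 42.9 CPM, 62nd of 15848 genes by mean. It held 73.7% and 73.0% of all reads of the 8 genes. Oaz2 (chr9:65668001-65690300, plus strand) stood at 370 and 384 CPM, 377 ± 10.04 CPM, 353rd of all genes. Oaz1 was 4.84 times the level of Oaz2, and their libraries did not overlap. Of the reads of the pair, Oaz1 had 82.9% (Wilson 95% interval 81.1 to 84.6) in replicate 1 and 82.8% (80.9 to 84.6) in replicate 2.

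The antizyme target and its inhibitor lay far lower. Odc1 (chr12:17544794-17551505, plus strand) had 42 and 45 reads, 48.9 and 63.6 CPM, 56.2 ± 10.4 CPM. Azin1 (chr15:38487427-38519266, minus strand) had 47 and 32 reads, 54.7 and 45.2 CPM, 49.96 ± 6.71 CPM. The order of these 2 genes turned between the libraries: Odc1 had 47.2% of their summed reads in replicate 1 (37.2 to 57.5) and 58.4% in replicate 2 (47.3 to 68.8). Odc1-201 carried 35 and 37 reads. Azin1-201 carried 30 and 20, and Azin1-203, which has an extra exon, carried 3 and 0. Single-exon reads classed as genomic made up 9 of the 47 Azin1 reads in replicate 1 and 2 of 32 in replicate 2. Azin1-201 was the leading annotated model with 90.9% and 100% of annotated reads, and it was the only member with enough annotated reads and a share low enough to be tested between libraries. It was not called by Fisher's exact test (Benjamini-Hochberg adjusted p = 1), against 0.0964% of 1037 genes.

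The enzymes that build spermidine and spermine were in the same low range. Amd1 (chr10:40287458-40302186, minus strand) had 62 and 53 reads, 72.2 and 74.9 CPM, 73.5 ± 1.93 CPM, and Amd1-201 carried 50 and 40 of the reads. Sms (chrX:157443855-157492287, minus strand) had 46 and 52 reads, 53.5 and 73.5 CPM, 63.5 ± 14.1 CPM, of which Sms-201 carried 40 and 44. Srm (chr4:148591503-148594993, plus strand) had 19 and 20 reads, 22.1 and 28.3 CPM, 25.2 ± 4.34 CPM, of which Srm-201 carried 17 and 14. Srm, which acts before Sms, thus had fewer reads than Sms in both libraries, 29.2% (19.6 to 41.2) and 27.8% (18.8 to 39.05) of the reads of the pair.

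Sat1 (chrX:155213132-155216449, minus strand) had the lowest level, with 16 and 12 reads, 18.6 and 17.0 CPM, 17.8 ± 1.18 CPM. Sat1-201 carried 12 and 9 reads, and Sat1-207 carried 2 and 2. Sat1-207 holds an extra exon of 110 bases (chrX:155215121-155215230) and is typed in GENCODE as a target of nonsense-mediated decay. Reads with the extra exon were 2 of 14 in replicate 1 (14.3%, Wilson 95% interval 4.01 to 39.9) and 2 of 11 in replicate 2 (18.2%, 5.14 to 47.7). The junction into this exon is shown because it carries a stop codon, in capitals, after 6 bases of the exon before and 11 bases of the extra exon.
Sat1-207, junction: ctgaaggttacagtctcTAG
Read from the start codon, this stop follows 71 codons, where Sat1-201 has 171. A further chain without an annotated match had 2 reads in replicate 1 and 0 in replicate 2.

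**Figure D4:**
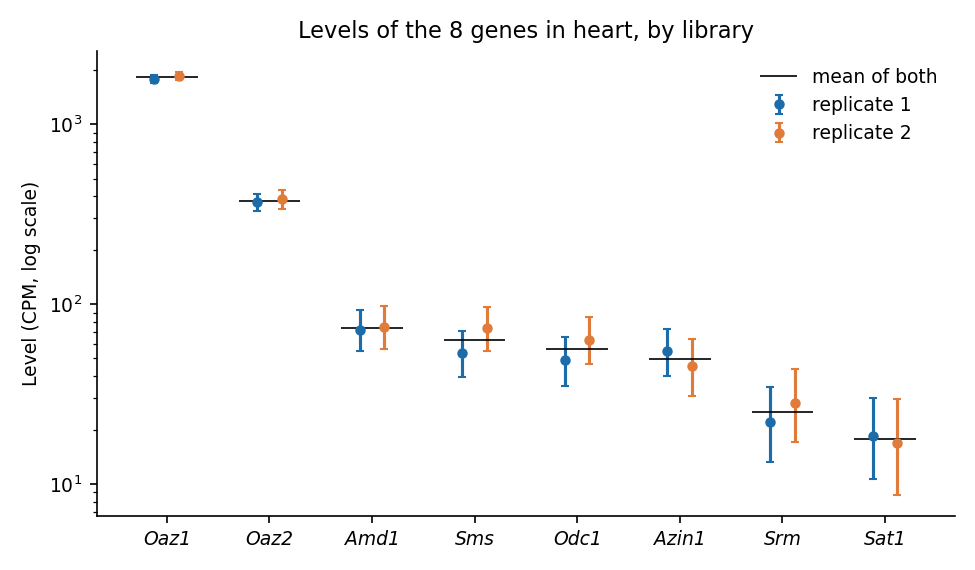
Level in CPM (vertical axis, log scale) of the 8 genes in each library; points are replicates, bars are exact Poisson 95% intervals of the reads and black lines are the means. Oaz1 and Oaz2 stand apart at 1826 and 377 CPM, and the other 6 genes lie between 17.8 and 73.5 CPM with overlapping intervals between replicates.

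By mean CPM the order was Oaz1, Oaz2, Amd1, Sms, Odc1, Azin1, Srm and Sat1. Amd1 and Sms, Sms and Odc1, and Odc1 and Azin1 overlapped between the libraries, so that these neighbours did not differ beyond their spread. The values of the other neighbours did not overlap, but exact Poisson intervals of the reads did for some. For Srm these were 13.3 to 34.5 and 17.3 to 43.6 CPM, and for Sat1 10.6 to 30.2 and 8.76 to 29.6. The order of Srm and Sat1 was thus not resolved beyond counting error. The intervals of Azin1 (40.2 to 72.7 and 30.9 to 63.8 CPM) and Srm overlapped in replicate 2 and not in replicate 1. Those of Oaz1 and Oaz2, and of Oaz2 and Amd1, did not overlap. Each long read is counted once whatever its length, and the level per read is the main scale. Divided by the mean model length in kb, Oaz1 stood at 1736 ± 9.13 and Oaz2 at 206 ± 5.10 CPM per kb. On this scale Odc1 (27.6 ± 4.43 CPM per kb) and Amd1 (26.2 ± 2.35) overlapped, as did Srm (19.4 ± 3.38) and Sms (18.7 ± 4.08). Sat1 (14.6 ± 1.11) and Azin1 (12.1 ± 2.01), whose models were the longest of the 8 genes, closed the order.

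Near-identical gene copies make some of these levels uncertain. Amd2, a coding copy of Amd1, has a transcript 99.6% identical to it and had 69 and 55 reads, 79.01 ± 1.84 CPM. How the reads divide between the copies is uncertain; their sum was 131 and 108 reads, 153 ± 0.0888 CPM. Oaz1-ps, a processed pseudogene 99.7% identical to Oaz1, had 3 and 8 reads beside the 1543 and 1314 of Oaz1. The remaining copies had at most 6 reads each over both libraries. On the strand opposite Sms, unannotated models had 21 and 10 reads, of which 13 and 4 lay on a single-exon model at chrX:157444928-157445696 inside the Sms gene. The other members had at most 5 such reads each over both libraries. Reads joined to a neighbouring gene were few. Exons of Rbpms2, upstream of Oaz2, were joined to Oaz2 in 1 and 2 reads, and 1 read of Srm in replicate 2 ran on into Masp2.

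The libraries were compared gene by gene with a two-sided exact binomial test against the library totals, over 9334 genes with at least 10 reads. None of the 8 members was called, at an adjusted p below 0.05 with a 2-fold difference, where 0.321% of all tested genes were, or without the fold, where 1.15% were. The lowest adjusted p was 0.748 (Sms, exact binomial test, Benjamini-Hochberg), and no member had an unadjusted p below 0.05, the lowest being 0.128. Of all 9334 tested genes, 796 had an unadjusted p below 0.05 in this test. edgeR's exact test with a preset biological variation of 0.1 or 0.2 called 0 of the 8. The preset variation adds to the counting error, so this test could not be expected to call a member that the binomial test did not. The log2 ratio of replicate 2 over replicate 1 was above 0 in 6 genes and below 0 in 2, Azin1 at -0.27 and Sat1 at -0.12. Its median was 0.06, beside 0.05 over all tested genes. The precision followed depth: the ratio of Oaz1 was 1.03 (exact 95% interval 0.960 to 1.11) and that of Oaz2 1.04 (0.880 to 1.22), while that of Sat1 was 0.910 (0.393 to 2.05) and that of Sms 1.37 (0.905 to 2.09). For Odc1 it was 1.30 (0.835 to 2.03), a difference not detectable at this depth.

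The wider polyamine pathway was followed with a list of 36 genes, written with earlier results of these data known. Reads were found for 30 of them and 0 for 6, which allows up to 3.49 and 4.24 CPM. The 6 were Mat1a, the liver form of methionine adenosyltransferase, the arginases Arg1 and Arg2, the agmatinase gene Agmat, Oaz3 and the transporter Slc22a2. Of the 21 genes tested, 0 passed in either direction by the exact binomial test (adjusted p below 0.05), beside 1.15% of all tested genes. Among the 21, 3 had an unadjusted p below 0.05, beside 796 of all 9334 tested genes. The median log2 ratio of the list was 0.12, beside 0.05 over all genes.

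Among the suppliers, Mat2a and Mat2b, the catalytic and regulatory subunits of the methionine adenosyltransferase found outside the liver, stood at 250 ± 35.98 and 163 ± 46.3 CPM. Mat2b had 168 and 92 reads and the lowest adjusted p of the list (0.0997, exact binomial test). With edgeR's TMM factors as scaling its adjusted p in the same test was 0.0464 at a fold of 1.55, so that 1 gene of the list passed without the fold minimum. The share of all genes that passed so was counted on the main scaling alone, at 1.15%. Oat, which links ornithine to glutamate, stood at 170 ± 10.2 CPM, and the second antizyme inhibitor Azin2 at 3.99 ± 2.35 CPM.

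Downstream of the synthases, genes that reuse or consume the products were read at higher levels than the synthases in some steps and lower in others. In the salvage of methylthioadenosine, the by-product of both synthases, Got1 stood at 925 ± 68.7 CPM and Apip at 117 ± 3.84 CPM. Got1, an aspartate aminotransferase, has other roles in heart as well. Eif5a, the translation factor that receives hypusine from spermidine, stood at 428 ± 10.6 CPM, and Dohh, which completes that modification, at 56.4 ± 4.10 CPM. Smox, spermine oxidase, stood at 20.6 ± 7.12 CPM and Hdac10, a polyamine deacetylase, at 17.1 ± 2.18 CPM. Of the transport genes, Slc3a2 stood at 59.6 ± 13.6 CPM and the lysosomal polyamine exporter Atp13a2 at 34.0 ± 1.93 CPM.

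**Figure D5:**
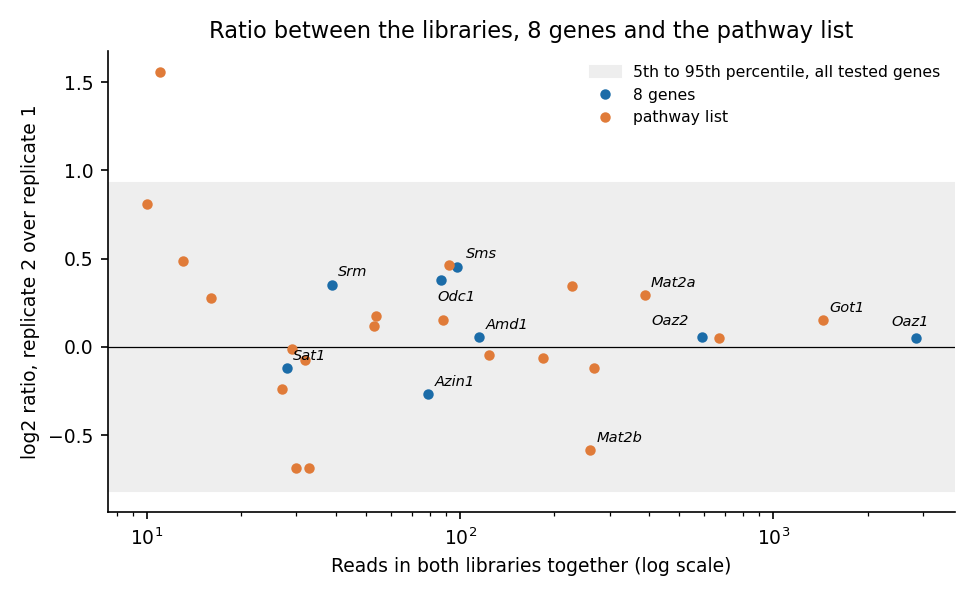
Log2 ratio of replicate 2 over replicate 1 (vertical axis) against the reads of a gene in both libraries together (horizontal axis, log scale) for the 8 genes and the 21 tested genes of the pathway list; the grey band spans the 5th to 95th percentile of all 9334 tested genes. All 8 genes lie inside the band, between -0.27 and 0.45, and Oaz1 and Oaz2, with the most reads among the 8, lie close to 0.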

How the data were processed

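The authors deposited a table for each library with the count of reads on every transcript model, on mm10 and GENCODE M21 with models added by the authors' TALON software, per the file headers. The deposited files also give model lengths, exon numbers and exon coordinates, per the file headers. The aligner, its version and any filters: not given in the sources used here. Spike-ins were left out, models were summed per gene, and CPM was taken on reads of annotated genes (859191 and 707758). Genes with at least 10 reads were compared between the libraries by a two-sided exact conditional binomial test, and shares by Fisher's exact test, with Benjamini-Hochberg adjustment over all genes tested. With 1 group of 2 libraries edgeR's quasi-likelihood test has no residual degrees of freedom. Log2 ratios used 0.5 added reads.

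The members and lists were chosen with earlier results of these data known. Named genes were all members, member models with at least 10 reads or unannotated and seen in both libraries, and the 2 highest genes of each pathway group with those at 0 reads. Copies and overlapping genes were named from 10 reads in total. Other models, Nadk2, Mpc1, Gbe1, Tnnt2, Rbpms2 and Masp2 were named after their values were seen. Copies were found with BLAST+ 2.17.0 (at least 95% identity over 80% of a transcript). Sequences came from GENCODE M21 transcripts (C57BL/6J). Gap filling and the paralog alternatives were added after the data were examined. Scaling, minimums, model classes and preset variation were varied with edgeR 4.0.16 and DESeq2 1.42.0. The tests were tested on simulated data with Python 3.11.15 and SciPy 1.17.1.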

Additional observations from a re-analysis of the deposited data

How the results depend on the processing

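No member was called between the libraries under any of the 8 alternatives (6 members were tested with annotated models only, where Oaz1 and Oaz2 had too few reads), and the lowest adjusted p of a member was 0.682. The sign of Amd1, which was not called, turned in 1 of them (annotated models only, log2 ratio -0.03). The count of called genes, 30, was 15 with annotated models only and 12 and 4 with edgeR's exact test at a preset variation of 0.1 and 0.2. The summed level of the 8 genes, 2490 CPM, was 230 CPM with annotated models only and 2352 CPM with those plus filled gaps; leaving out a replicate gave 2436 to 2543 CPM. With annotated models only Oaz1 stood at 0.582 CPM and Oaz2 at 0 CPM, since their leading models are not annotated. Genes called for their leading model were 1, and 4 with all spliced models. Genes called for their annotated share were 6, and 57 without single-exon genomic models. The 12 unannotated structures seen in both libraries were 37 when either was enough. In the pathway list 0 genes had an adjusted p below 0.05, and 1 with TMM factors (Mat2b, 0.0464). Gaps of up to 5 or 20 bases gave the same shares as 10 for Oaz1 (97.3%) and Oaz2 (91.6%). The causes of the other changes were not tested. No paired analysis was possible because the study has 1 group. Depth limits Srm, Sat1, Azin1 and Odc1 the most, with 12 to 47 reads per library.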
